A study of Mus musculus with 8 samples.

Results

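Kinesins are motor proteins that use ATP to move along, slide or take apart microtubules, and the genes that encode them were followed here in mouse blastocysts. The members were the rows of the deposited expression table whose gene symbol is a kinesin name (Kif or Kifc followed by a number), which gave 37 of 19688 genes. By textbook roles they were divided into 14 mitotic kinesins, 15 transport kinesins and 8 others.

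The study sequenced RNA of mouse blastocysts in 3 groups. 3 libraries came from blastocysts vitrified with melatonin, an antioxidant hormone, added at 1e-10 M to the vitrification and thawing media. Another 3 came from blastocysts vitrified without it, and 2 came from fresh blastocysts that were never vitrified. The titles of the fresh libraries begin with IVF. Vitrification cools an embryo to a glass in cryoprotectant, and the question of the series is what it does to blastocysts and what melatonin alters. The labels give no strain, genotype or embryo age, and number the libraries as biosamples without saying whether these were separate animals, pools or cultures, so that the p-values below reflect differences among these libraries, which may be technical.

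Mitotic kinesins build and position the spindle, move and hold chromosomes, and organise the central spindle on which a dividing cell is pinched apart. They are made mostly in the later part of the cell cycle, so that their transcripts are usually more plentiful in tissues with many dividing cells, among which the blastocyst belongs. Transport kinesins carry mitochondria, vesicles, endosomes and parts of cilia through the cell at all stages, several of them mainly in neurons.

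The values were FPKM, fragments scaled by the length of the transcript and by the total of the library, a level per length that allows genes to be compared with one another. An estimated 5812000 to 9996000 fragments stood behind a library, so that 1 FPKM of a 2 kb transcript was worth 11.6 to 20.0 fragments. Trophectoderm keratins were abundant everywhere, with Krt8 at 1484.7 to 3499.3 FPKM and Krt18 at 4947.1 to 7783.0 FPKM, and the epiblast gene Nanog was present in all 8 libraries. Of the cumulus cell markers listed, 1 of 6 was found in the table, Has2, and it stood at 0 in 7 of 8 libraries, which says little about such cells. Fresh replicate 1 stood apart from fresh replicate 2: 59.8% of the 10755 genes tested were higher in fresh replicate 2, by a median of 0.13 on the scale of log2(FPKM + 1). Among the mitotic kinesins this was 12 of 13, by a median of 0.45, and among the transport kinesins 5 of 7, by 0.26. The calls, class medians and counts without overlap against fresh embryos are therefore given below also without each fresh library.

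Promoter sequences of the mitotic and transport kinesins were compared for motifs that many, but not all, of the mitotic ones hold. In many cell-cycle genes 2 short elements lie close to the start site, the cell cycle genes homology region (CHR, TTTGAA or its reverse complement TTCAAA) and the CCAAT box (CCAAT or ATTGG), which are known as binding sites of the MuvB complexes and of NF-Y. The following 120 bases, from 90 bases before to 30 bases after the start site, are from RefSeq on GRCm38.p6 and read 5′ to 3′ on the strand of the gene; capitals mark these motifs. The first 6 are mitotic kinesins, picked from those that hold a CHR in this window, as Kif20b and Kifc1 also do. The last pair are expressed transport kinesins, shown for contrast.
Kif22, chr7:127042391-127042510, minus strand: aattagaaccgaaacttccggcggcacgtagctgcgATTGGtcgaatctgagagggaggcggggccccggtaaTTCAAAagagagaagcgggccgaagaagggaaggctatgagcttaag
Kif18b, chr11:102925095-102925214, minus strand: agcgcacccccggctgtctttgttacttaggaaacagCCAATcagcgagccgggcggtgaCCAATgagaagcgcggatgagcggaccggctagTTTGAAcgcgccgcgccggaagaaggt
Kif11, chr19:37376292-37376411, plus strand: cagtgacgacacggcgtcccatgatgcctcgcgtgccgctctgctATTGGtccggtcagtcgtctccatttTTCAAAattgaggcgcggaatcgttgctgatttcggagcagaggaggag
Kif23, chr9:61946770-61946889, minus strand: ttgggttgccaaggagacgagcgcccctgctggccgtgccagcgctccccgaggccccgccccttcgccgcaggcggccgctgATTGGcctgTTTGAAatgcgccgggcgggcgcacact
Kif4, chrX:100625975-100626094, plus strand: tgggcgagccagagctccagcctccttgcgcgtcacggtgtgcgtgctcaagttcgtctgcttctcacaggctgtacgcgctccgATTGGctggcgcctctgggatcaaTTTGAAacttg
Kif15, chr9:122950991-122951110, plus strand: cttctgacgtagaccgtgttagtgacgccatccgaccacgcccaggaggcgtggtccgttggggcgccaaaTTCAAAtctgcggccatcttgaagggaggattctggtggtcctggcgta
Kif3a, chr11:53567279-53567398, plus strand: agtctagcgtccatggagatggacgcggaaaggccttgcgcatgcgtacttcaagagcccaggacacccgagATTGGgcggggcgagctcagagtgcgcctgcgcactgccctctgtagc
Kif16b, chr2:142901435-142901554, minus strand: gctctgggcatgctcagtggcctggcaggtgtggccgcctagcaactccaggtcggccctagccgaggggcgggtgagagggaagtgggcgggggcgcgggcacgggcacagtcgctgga

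In Kif22 the CCAAT box starts at position -54 and the CHR at -17, counted from the start site, and in Kif11 they start at -45 and -19. Kif18b carries CCAAT boxes at -53 and -30 ahead of a CHR at 4, while the CCAAT box and the CHR start at -7 and 3 in Kif23 and at -5 and 20 in Kif4. Kif15 has a CHR at -19 and no CCAAT box, Kif3a a CCAAT box at -18 and no CHR, and Kif16b neither. RefSeq promoters of 300 bases reached 250 bases before and 50 bases after the start. They were matched for 13 of 14 mitotic and 10 of 15 transport kinesins. Kif20a, the most abundant kinesin, was the mitotic member without a match. The transport members without a match were Kif5b, the most abundant of that class, Kifc3, Kifc2, Kif13b and Kif5a. Of the transport kinesins with a match, only Kif3a, Kif16b and Kif13a reached 1 FPKM in at least 2 libraries. Both strands were searched, and the 2 motifs can share at most 1 base. A gene counted if any of its promoters held the motif, and for both motifs these could be different promoters of that gene. The CHR was found for 11 of 13 mitotic (84.6%) and 1 of 10 transport kinesins (10.0%, Kif1a), against 20.2% of the 27025 genes with a promoter sequence. The CCAAT box was found for 8 of 13 mitotic (61.5%) and 3 of 10 transport kinesins (30%), against 41.1% of all these genes. Both together were found for 8 of 13 mitotic (61.5%) and 0 of 10 transport kinesins, against 9.0% of all these genes. Within the 120-base window, 6 of 13 mitotic kinesins held both (46.2%: Kif23, Kif22, Kif11, Kif18b, Kif4 and Kifc1), as did 1.9% of all these genes. Among the mitotic kinesins searched, Kif18a and Kif2a held neither motif, and Kif2c only a CHR at -103, outside the window. A match is a string of letters and does not show that a factor binds there.

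**Figure D1:**
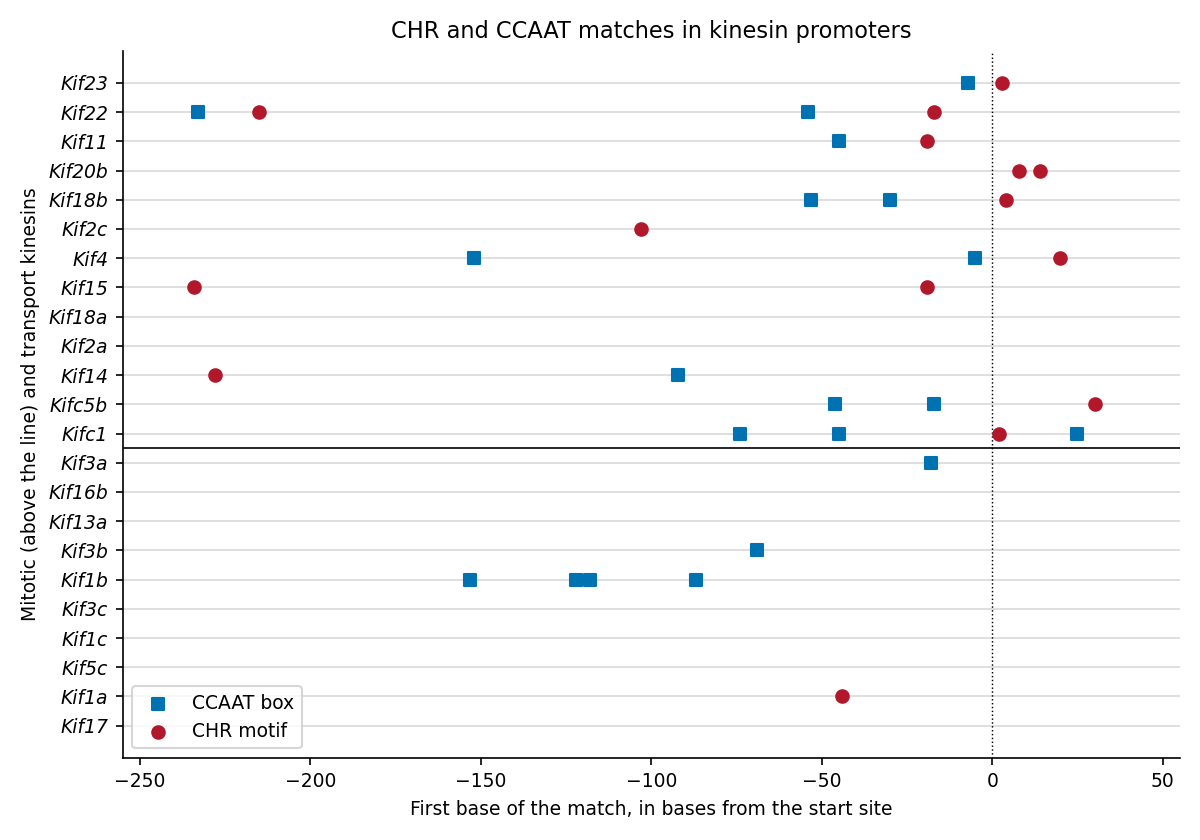
Positions of CHR motifs (circles) and CCAAT boxes (squares) in the promoters of mitotic kinesins (above the line) and transport kinesins (below it), as the first base of each match in bases from the start site. CHR matches occur for 11 of 13 mitotic and 1 of 10 transport kinesins with a promoter sequence, most of the mitotic ones close to the start.

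The mitotic kinesins dominated the family. They made up 85.7% to 91.2% of the summed kinesin FPKM in the melatonin-vitrified libraries, 82.1% to 87.5% in the vitrified and 80.9% and 83.6% in the fresh ones, and their summed level was 222.4 to 288.4, 200.6 to 240.8, and 103 and 156.8 FPKM in the same groups. The summed transport kinesins stood at 26.6 to 36.8 FPKM in the melatonin-vitrified, 33.7 to 42.6 FPKM in the vitrified and 23.0 and 29.0 FPKM in the fresh libraries. Both fresh libraries therefore held less mitotic kinesin message than any vitrified library of either kind, while the transport sums of the melatonin-vitrified and fresh groups overlapped. RNA was taken from whole blastocysts, so fewer dividing cells and less of these RNAs per cell cannot be told apart.

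The level needed for testing, 1 FPKM in at least 2 libraries, was reached by 20 kinesins, namely 13 of 14 mitotic, 7 of 15 transport and 0 of 8 others. The motors that set up the bipolar spindle come first. Kif11 (kinesin-5; mm10 chromosome 19, 37376403 to 37421859) pushes the spindle poles apart by sliding antiparallel microtubules. It had 23.8, 21.2 and 16.3 FPKM in the melatonin-vitrified libraries, 19.3, 21.1 and 14.9 FPKM in the vitrified and 6.56 and 16.9 FPKM in the fresh libraries. The 6 vitrified libraries of both kinds span one range, and 1 of the fresh libraries lies inside it. Kif15 (kinesin-12; chromosome 9, 122951046 to 123018733) helps to keep the spindle bipolar. Its levels were 6.31, 3.99 and 5.59 FPKM in the melatonin-vitrified, 7.31, 11.2 and 7.46 FPKM in the vitrified, and 3.26 and 3.71 FPKM in the fresh libraries. For Kif15 the 3 groups did not overlap, with the melatonin-vitrified embryos in the middle.

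The kinesins that take microtubules apart or limit their growth differed among themselves. Kif2c (kinesin-13; chromosome 4, 117159639 to 117182639) corrects faulty attachments at centromeres. It stood at 9.65, 11.1 and 7.58 FPKM in the melatonin-vitrified, 11.1, 10.7 and 10.2 FPKM in the vitrified, and 4.52 and 5.94 FPKM in the fresh libraries. Both fresh libraries lay below all others, and the vitrified kinds overlapped. Its relative Kif2a (chromosome 13, 106958996 to 107022126), which acts at spindle poles and is also used by cells that do not divide, had 0.892, 1.49 and 2.75 FPKM in the melatonin-vitrified, 3.11, 4.13 and 3.12 FPKM in the vitrified, and 2.31 and 3.16 FPKM in the fresh libraries. Here every melatonin-vitrified library was below every vitrified one, and the fresh libraries overlapped both groups. Kif18b (kinesin-8; chromosome 11, 102905529 to 102925124) controls the length of astral microtubules. It reached 20.0, 15.0 and 15.2 FPKM in the melatonin-vitrified, against 7.84, 9.32 and 8.38 FPKM in the vitrified and 4.69 and 8.72 FPKM in the fresh libraries. Every melatonin-vitrified library was above every other one, and fresh replicate 2 lay inside the vitrified range. Kif18a, which damps chromosome movements on the metaphase plate, ranged from 4.42 to 7.23 FPKM in the melatonin-vitrified, 4.02 to 5.26 FPKM in the vitrified and 3.33 to 3.41 FPKM in the fresh libraries.

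The chromokinesins bind chromosome arms and push them away from the poles. Kif22 (chromosome 7, 127027729 to 127042471) had 28.3, 33.6 and 21.8 FPKM in the melatonin-vitrified, 18.5, 23.1 and 20.7 FPKM in the vitrified, and 9.91 and 12.8 FPKM in the fresh libraries. The fresh libraries were the lowest, and the other groups overlapped in 1 melatonin-vitrified library. Kif4 (chromosome X, 100625737 to 100727214), which sets the length of the central spindle with Prc1, ranged from 8.02 to 11 FPKM in the melatonin-vitrified and 7.87 to 9.65 FPKM in the vitrified libraries, and had 2.90 and 6.67 FPKM in the fresh ones. Transcripts of 4 Y-linked genes summed to 0 FPKM in vitrified replicates 2 and 3 and to 20.9 to 36.8 FPKM in the other 6 libraries. X-linked Kif4 was at 7.87 and 9.65 FPKM in those 2 vitrified libraries and at 9.38 FPKM in the third.

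The kinesins of the central spindle and of cytokinesis included the most abundant member. Kif20a (kinesin-6), which moves the chromosomal passenger complex to the central spindle, had 118.2, 124.5 and 87.2 FPKM in the melatonin-vitrified, 76.2, 83.4 and 74.3 FPKM in the vitrified, and 39.5 and 54.2 FPKM in the fresh libraries. The 3 groups did not overlap, and Kif20a alone was 33.6% to 39.4%, 30.3% to 31.2%, and 31.0% and 28.9% of the summed kinesin FPKM in them. Kif23 (chromosome 9, 61915905 to 61946774), the motor of the centralspindlin complex, had 34.4, 39.1 and 34.4 FPKM in the melatonin-vitrified, 27.7, 37.5 and 30 FPKM in the vitrified, and 17.6 and 25.6 FPKM in the fresh libraries. The fresh libraries were lowest for Kif23, and the vitrified kinds overlapped. Kif20b, which acts when the daughter cells part, spanned 15.4 to 19.1 FPKM in the melatonin-vitrified, 12.9 to 23.6 FPKM in the vitrified and 7.73 to 14.6 FPKM in the fresh libraries. Kif14, which brings citron kinase to the midbody, ranged from 0.883 to 1.16 FPKM in the melatonin-vitrified and 0.808 to 1.59 FPKM in the vitrified libraries, and had 0.490 and 0.545 FPKM in the fresh ones. The minus-end motors Kifc1 and Kifc5b stayed at or below 0.629 and 1.5 FPKM in all libraries. They are near-identical copies of one another and reads could be split between them, so their values are uncertain.

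**Figure D2:**
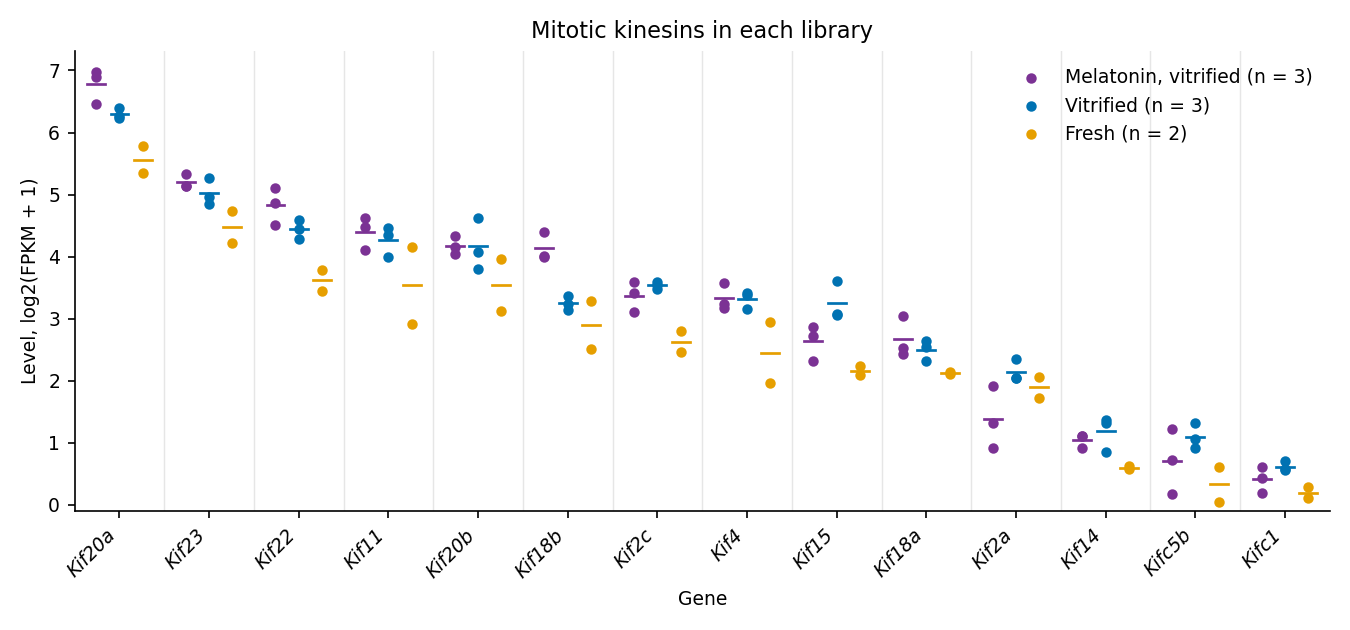
Levels of the 14 mitotic kinesins as log2(FPKM + 1), 1 point per library and a bar at the group mean, with melatonin-vitrified, vitrified and fresh libraries side by side for each gene. For Kif20a, Kif23, Kif22, Kif2c and Kif15 both fresh libraries lie below all others; for Kif18b the melatonin-vitrified libraries lie above all others.

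Vitrified blastocysts had higher levels of nearly all tested kinesins than fresh ones, but no kinesin passed the test. All 20 fold changes were positive, as were 6828 of the 10755 genes tested. The median log2 fold change was 0.73 for the 13 mitotic and 0.48 for the 7 transport kinesins, against 0.14 for all genes tested. The order of the classes was not stable: the transport median was the higher with a pseudocount of 0.1 (mitotic 0.79, transport 0.82), with library weights (0.60 and 0.61) and without fresh replicate 1 (0.39 and 0.42). After median ratio scaling of the libraries, which moved the median of all genes to -0.01, the mitotic and transport medians were 0.54 and 0.37 and 19 of 20 fold changes were positive, Kif13a being the exception at -0.09; after quantile normalization it was again the exception, at -0.22. The smallest p-values were those of Kif2c, at 10.7 ± 0.461 FPKM in vitrified (SD, n = 3) and 5.23 ± 1.01 FPKM in fresh embryos (SD, n = 2), Kif15, at 8.67 ± 2.22 and 3.49 ± 0.320 FPKM, and Kif22, at 20.8 ± 2.31 and 11.4 ± 2.04 FPKM in the same groups. The fitted log2 fold change was 0.91 ± 0.21 (SE) for Kif2c, with a limma adjusted p of 0.0607. It was 1.09 ± 0.25 for Kif15 (limma adjusted p = 0.0623), 0.82 ± 0.22 for Kif22 (limma adjusted p = 0.0809) and 0.74 ± 0.20 for Kif20a (limma adjusted p = 0.0860). Kif11 and Kif23 had values of 0.73 ± 0.34 (limma adjusted p = 0.262) and 0.55 ± 0.20 (limma adjusted p = 0.175).

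At an adjusted p below 0.05, 0 of 20 kinesins were called between vitrified and fresh embryos, where 0.865% of all genes were. Of all genes called, 82 were higher and 11 lower, and after median ratio scaling 3 were higher and 4 lower. At an adjusted p below 0.1, the 4 kinesins Kif2c, Kif15, Kif22 and Kif20a were called higher, as were 5.31% of all genes. At an unadjusted limma p below 0.05, 11 of 20 were higher, against 15.6% of all genes, and 0 were lower, against 4.56%. All vitrified libraries lay above both fresh ones for 14 of 20, against 26.4% of genes, and below them for 0, against 10.6%. By class, 9 of 13 mitotic and 5 of 7 transport kinesins were without overlap, all higher. Without fresh replicate 1, 18 of 20 fold changes were positive (Kif18b had -0.03 and Kif13a -0.30), the mitotic median was 0.39, the transport median 0.42 and that of all genes 0.07, and the smallest limma adjusted p of a kinesin was 0.175. The vitrified libraries then lay above the remaining fresh one for 14 kinesins, against 37.8% of genes, and below it for 1 (Kif13a), against 26.8%. Without fresh replicate 2 the mitotic median was 0.99 and the transport median 0.45, beside 0.22 for all genes. All 20 kinesins were then above the fresh library, against 49.8% of genes, and 0 were below it, against 22.1%, and the 3 kinesins Kif11, Kif4 and Kif2c passed at an adjusted p below 0.05, as did 3.52% of all genes with higher levels. In each of these fits 1 lone fresh library is assumed to vary as the others do.

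Between melatonin-vitrified and vitrified embryos the fold changes of the mitotic kinesins lay on both sides of 0, 8 positive and 5 negative. Of the 10755 genes tested, 4706 were positive and 6049 negative. The median log2 fold change of the mitotic kinesins was 0.02, that of the transport kinesins -0.25 and that of all genes -0.05. Kif18b, at 16.8 ± 2.86 FPKM with melatonin and 8.51 ± 0.750 FPKM without (SD, n = 3 each), had the smallest p of the family, with a log2 fold change of 0.89 ± 0.22 (SE) and a limma adjusted p of 0.160. Kif20a was next among the higher ones, at 110 ± 20.0 FPKM with melatonin and 78.0 ± 4.78 FPKM without, a log2 fold change of 0.48 ± 0.18 with a limma adjusted p of 0.272. Kif22 followed with 0.39 ± 0.19 (limma adjusted p = 0.375). On the lower side stood Kif2a, at 1.71 ± 0.950 FPKM with melatonin and 3.45 ± 0.585 FPKM without, a log2 fold change of -0.77 ± 0.27 with a limma adjusted p of 0.249. Kif15 had -0.61 ± 0.22 (limma adjusted p = 0.264) and the transport kinesin Kif13b -0.49 ± 0.22 (limma adjusted p = 0.337). The core motors Kif11, Kif23 and Kif2c had 0.14 ± 0.30, 0.18 ± 0.18 and -0.17 ± 0.19, each within about 1 SE of 0.

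None of the 20 kinesins was called between melatonin-vitrified and vitrified embryos, and 0.139% of all genes were. At an unadjusted limma p below 0.05, 2 were higher (Kif18b and Kif20a), against 4.59% of genes, and 3 were lower (Kif2a, Kif15 and Kif13b), against 10.2%. The groups did not overlap for 2 kinesins that were higher with melatonin (Kif18b and Kif20a), against 9.30% of genes, and for 4 that were lower (Kif2a, Kif15, Kif13b and Kifc2), against 15.4%. Kif18a, the other kinesin-8 beside Kif18b, had a log2 fold change of 0.17 ± 0.21. When each library was weighted by its fitted variance, Kif18b passed with a limma adjusted p of 0.0376. In that fit 0.335% of all genes were called higher. Only in vitrified replicates 2 and 3 did the 4 Y-linked genes sum to 0 FPKM, so sex was not balanced between these groups. With sex as a covariate the smallest limma adjusted p of a kinesin was 0.806. It was 0.256 with the biosample number and 0.310 with the title number as a replicate block.

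Melatonin-vitrified embryos compared with fresh ones showed the largest fold changes of the family, again without a call. Kif18b, Kif20a and Kif22 had log2 fold changes of 1.24 ± 0.25, 1.21 ± 0.20 and 1.21 ± 0.22 (SE), all 3 with a limma adjusted p of 0.116. The mitotic median was 0.73 and the transport median 0.23, beside 0.09 for all genes. Positive fold changes were found for 12 of 13 mitotic and 4 of 7 transport kinesins, and for 6364 of the 10755 genes tested. On the negative side were Kif2a at -0.51 ± 0.30, with a limma adjusted p of 0.388, and the transport kinesins Kif13a at -0.24 ± 0.29, Kifc2 at -0.01 ± 0.22 and Kif13b at -0.01 ± 0.25. This comparison and that of vitrified with fresh embryos share the 2 fresh libraries and are not independent.

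Of the 20 kinesins, 0 were called between melatonin-vitrified and fresh embryos, as was 0% of all genes. At an unadjusted limma p below 0.05, 9 were higher, against 11.6% of genes, and 0 lower, against 6.82%. All melatonin-vitrified libraries were above both fresh ones for 12, against 20.8% of genes, and below them for 0, against 13.5%. Of these 12, 10 were mitotic and 2 were the transport kinesins Kif3a and Kif16b. Without fresh replicate 1 the mitotic median was 0.42, the transport median 0.17 and the smallest limma adjusted p of a kinesin 0.352. The median of all genes was 0.01 in that fit. The melatonin-vitrified libraries then lay above the remaining fresh one for 14 kinesins, against 30% of genes. They lay below it for 3 (Kif2a, Kif13a and Kifc2), against 28.6%. Without fresh replicate 2 the mitotic median was 0.99 and the transport median 0.13, beside 0.17 for all genes. Then 16 kinesins lay above the fresh library, against 45.5% of genes, and 1 below it (Kif13b), against 25.0%. In that fit the 6 mitotic kinesins Kif11, Kif20a, Kif4, Kif23, Kif18b and Kif22 passed, as did 3.92% of all genes with higher levels. Kif11 differed most between the fresh libraries among these, being 2.58 times as high in fresh replicate 2 as in fresh replicate 1, and Kif4 was 2.30 times as high.

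**Figure D3:**
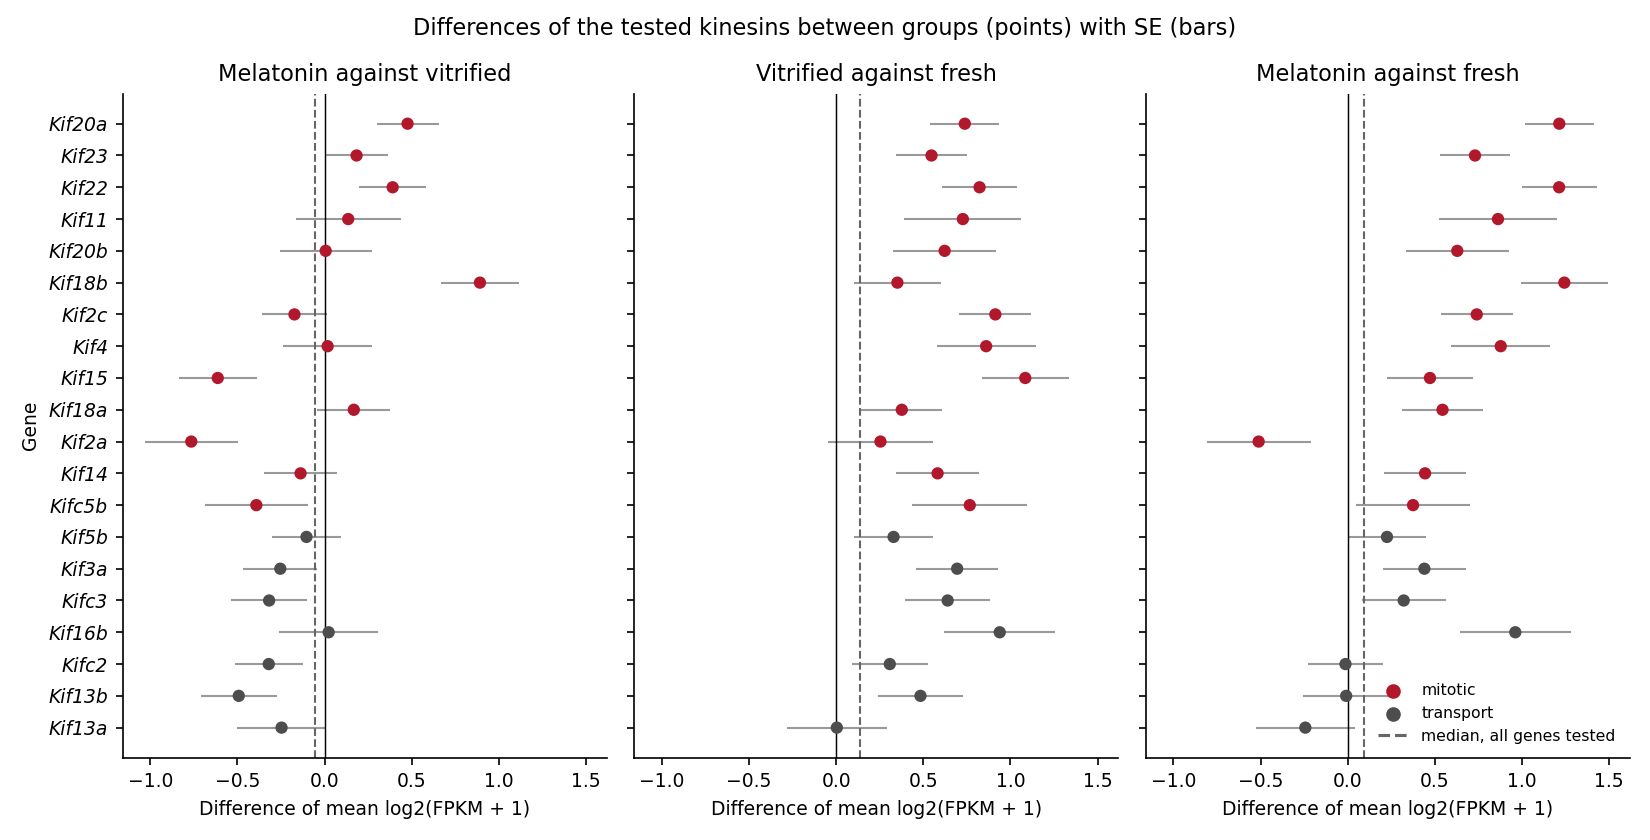
Differences of mean log2(FPKM + 1) for the 20 tested kinesins (points, with SE as bars) in 3 comparisons, the first-named group minus the second; the dashed line is the median of all genes tested. Against fresh embryos nearly all mitotic kinesins lie right of that line, while between melatonin-vitrified and vitrified embryos they lie on both sides, from -0.77 for Kif2a to 0.89 for Kif18b.

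**Figure D4:**
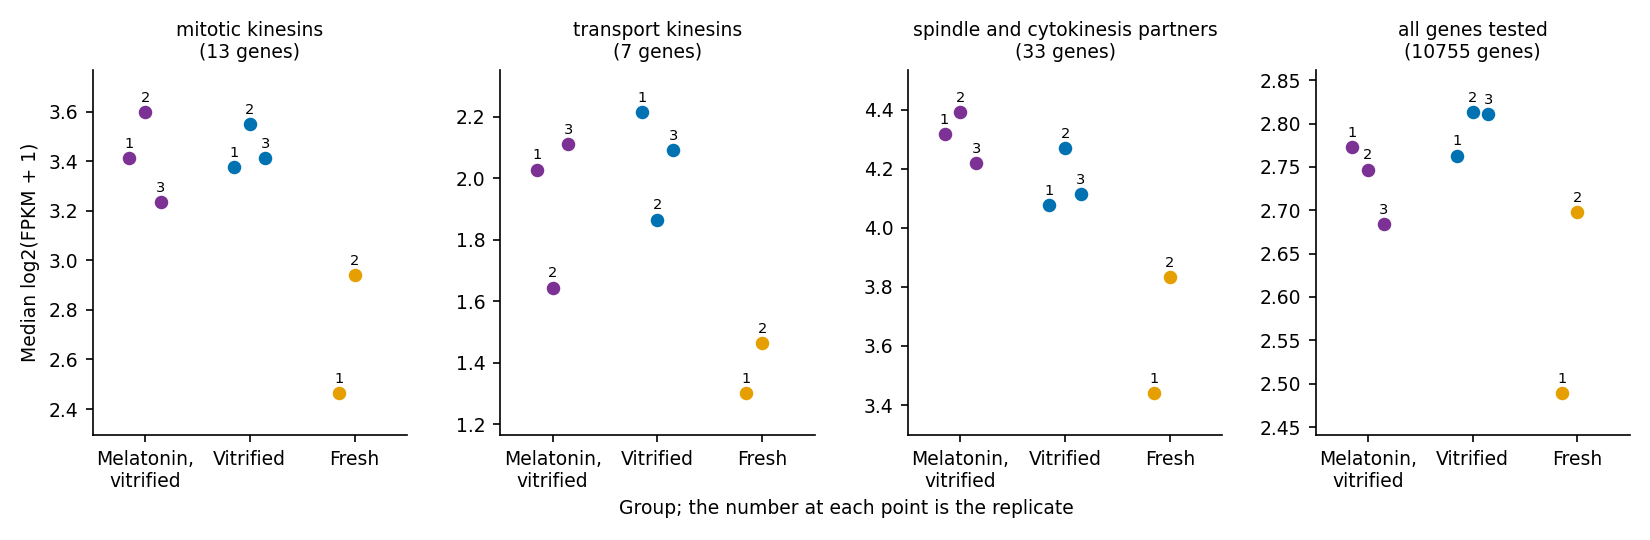
Median log2(FPKM + 1) in each library for mitotic kinesins, transport kinesins, spindle and cytokinesis partners and all genes tested; each panel has its own axis and the number at a point is the replicate. Fresh replicate 1 is lowest in all 4 panels, and fresh replicate 2 lies below the other groups except among all genes tested.

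The transport kinesins were led by Kif5b, the general heavy chain of conventional kinesin, which carries mitochondria and vesicles. It had 18.8, 12.1 and 16 FPKM in the melatonin-vitrified, 19.1, 15.3 and 15.7 FPKM in the vitrified, and 11.2 and 15.1 FPKM in the fresh libraries. Fresh replicate 2 lay inside the melatonin-vitrified range and just below the vitrified one, and the log2 fold changes were -0.10 ± 0.20 (melatonin-vitrified against vitrified), 0.33 ± 0.22 (vitrified against fresh) and 0.23 ± 0.22 (melatonin-vitrified against fresh). Its neuronal relatives Kif5a and Kif5c were at most 0.351 and 0.109 FPKM. Kif3a (chromosome 11, 53567379 to 53601967), a motor of heterotrimeric kinesin-2 that works in cilia, had 5.66, 4.84 and 6.07 FPKM in the melatonin-vitrified, 8.25, 5.74 and 6.48 FPKM in the vitrified, and 2.97 and 4.79 FPKM in the fresh libraries. Its partner Kif3b was at 0.584 to 0.931 FPKM, resting on 26 to 38 estimated fragments per library, and the message of the pair was unequal in every library, with Kif3a the higher. The alternative partner Kif3c was at 0.207 to 0.397 FPKM in the melatonin-vitrified, 0.0832 to 0.391 FPKM in the vitrified, and 0.701 and 0.552 FPKM in the fresh libraries. Kif3c was below the level for testing and, unlike the tested kinesins as a group, highest in both fresh libraries. It shares exons with genes on the opposite strand, among them 1110002L01Rik over 2617 bases. That gene was at 0.227 to 0.374 FPKM in the melatonin-vitrified, 0.422 to 0.777 FPKM in the vitrified, and 0.83 and 0.71 FPKM in the fresh libraries.

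Kifc3 (chromosome 8, 95099828 to 95202812), a minus-end motor of apical transport and adherens junctions, had 3.08, 2.31 and 3.55 FPKM in the melatonin-vitrified, 3.64, 3.39 and 4.83 FPKM in the vitrified, and 2.61 and 1.76 FPKM in the fresh libraries. Kif16b (chromosome 2, 142617474 to 142901531), which carries early endosomes, had 4.70, 2.13 and 3.32 FPKM in the melatonin-vitrified, 4.53, 2.12 and 3.26 FPKM in the vitrified, and 0.997 and 1.39 FPKM in the fresh libraries. Its fold change was the largest of the transport class against fresh embryos, at 0.96 ± 0.32 with melatonin (limma adjusted p = 0.181) and 0.94 ± 0.32 without (limma adjusted p = 0.143). Kifc2, a minus-end motor known from neurons, had 1.51, 1.73 and 1.58 FPKM in the melatonin-vitrified, 2.45, 2.64 and 1.74 FPKM in the vitrified, and 1.46 and 1.81 FPKM in the fresh libraries. Kif13b, which carries vesicles with the Dlg scaffold, had 0.575, 0.911 and 0.733 FPKM in the melatonin-vitrified, 1.25, 1.17 and 1.98 FPKM in the vitrified, and 1.00 and 0.522 FPKM in the fresh libraries. Both were lower in every melatonin-vitrified than in every vitrified library and overlapped between melatonin-vitrified and fresh ones. Kif13a, which carries endosomes to the cell surface, had 0.428, 0.545 and 1.34 FPKM in the melatonin-vitrified, 1.12, 0.955 and 1.08 FPKM in the vitrified, and 0.656 and 1.53 FPKM in the fresh libraries, without order between the groups.

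Among the 8 transport kinesins below the level for testing, Kif1b came next to Kif3b, at 0.315 to 0.945 FPKM. Kif1a and Kif17, known from neurons, did not exceed 0.0479 and 0.0482 FPKM, and Kif1c did not exceed 0.365 FPKM. The 8 other kinesins, most of them linked to cilia, were all low. Kif21a, which restrains microtubule growth at the cell cortex, had 0.259, 0.0525 and 0.547 FPKM in the melatonin-vitrified, 0.308, 0.0225 and 0.677 FPKM in the vitrified, and 0.819 and 0.451 FPKM in the fresh libraries, which corresponds to 1 to 53 estimated fragments. Kif27, linked to motile cilia, had 0.941, 0.419 and 0 FPKM in the melatonin-vitrified, 0, 0.392 and 0.737 FPKM in the vitrified, and 0.247 and 0.193 FPKM in the fresh libraries. In both, replicates of one group were spread over much of the range of all libraries. Kif9, of motile cilia and flagella, had 0.175, 0.142 and 1.21 FPKM in the melatonin-vitrified, 0.476, 0.0609 and 0.203 FPKM in the vitrified, and 0 and 0.574 FPKM in the fresh libraries. Kif24, which restrains cilia at the centriole, had 0.495, 0.195 and 0.487 FPKM in the melatonin-vitrified, 0.258, 0.139 and 0.116 FPKM in the vitrified, and 0.191 and 0.378 FPKM in the fresh libraries. Kif21b was at 0.122 to 0.262 FPKM, and Kif7, Kif19a and Kif26a at no more than 0.133 FPKM. These values were too low to tell groups apart at this depth.

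**Figure D5:**
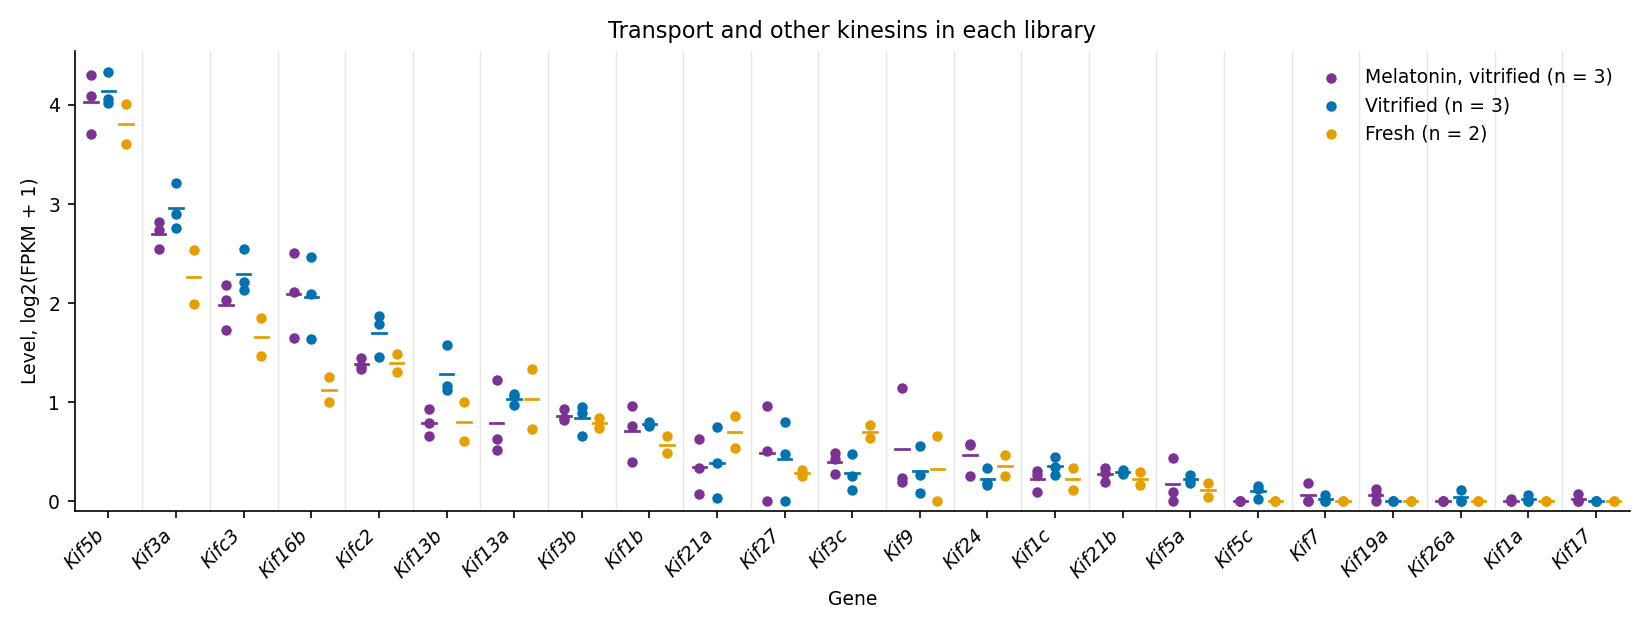
Levels of the 15 transport and 8 other kinesins as log2(FPKM + 1), 1 point per library and a bar at the group mean, ordered by mean level. Kif5b, Kif3a, Kifc3 and Kif16b lead, and the genes from Kif3b onward stay near or below 1 FPKM.

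The partners of the mitotic kinesins also had positive medians. The 33 tested genes of the spindle and of cytokinesis include Cenpe, itself a kinesin (kinesin-7) that the rule on gene symbols left out. Of the 33, 0 were called in any comparison. Their median log2 fold change was 0.14 between melatonin-vitrified and vitrified, 0.44 between vitrified and fresh, and 0.66 between melatonin-vitrified and fresh embryos. At an unadjusted limma p below 0.05 they counted 7 higher and 1 lower, 15 higher and 0 lower, and 23 higher and 0 lower in the same comparisons. The shares of all genes were 4.59% higher and 10.2% lower, 15.6% and 4.56%, and 11.6% and 6.82%. Aurka, a kinase of the spindle poles, averaged 201 ± 39.5 FPKM in melatonin-vitrified and 124.2 ± 20.4 FPKM in vitrified embryos (SD, n = 3 each), a log2 fold change of 0.68 ± 0.17 with a limma adjusted p of 0.164. Nusap1, a microtubule binder of the spindle, had 0.86 ± 0.27 in that comparison (limma adjusted p = 0.213). Against fresh embryos, the kinetochore protein Zwilch had 0.99 ± 0.20 (limma adjusted p = 0.0547) and the midbody protein Cep55 1.1 ± 0.24 (limma adjusted p = 0.0594) in vitrified embryos. In melatonin-vitrified embryos Plk1, the kinase that recruits many mitotic proteins, had 1.17 ± 0.20 and Tpx2, which activates Aurora A, 1.11 ± 0.22, both with a limma adjusted p of 0.116.

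Other proliferation genes had smaller differences. The 18 tested had medians of 0.10, 0.18 and 0.32 in the same 3 comparisons, with 0 called. By p-value, the cyclin Ccnb1 and the anaphase activator Cdc20 came first between melatonin-vitrified and vitrified embryos, at 0.87 ± 0.22 (limma adjusted p = 0.164) and 0.58 ± 0.17 (limma adjusted p = 0.206), and also between melatonin-vitrified and fresh embryos, at 1.11 ± 0.25 (limma adjusted p = 0.128) and 0.99 ± 0.19 (limma adjusted p = 0.116). The topoisomerase Top2a and the transcription factor Mybl2 had the smallest p-values of the list between vitrified and fresh embryos, at 0.74 ± 0.25 and 0.54 ± 0.19, with limma adjusted p of 0.144 and 0.150.

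The genes of the microtubule track and of the minus-end motor dynein had smaller medians against fresh embryos than the mitotic kinesins. The 14 tested tubulins had medians of -0.29 between melatonin-vitrified and vitrified, 0.18 between vitrified and fresh, and -0.06 between melatonin-vitrified and fresh embryos, and 0 were called. The beta-tubulin Tubb2a had -1.08 ± 0.31 in the first of these (limma adjusted p = 0.198) and 1.61 ± 0.35 in the second (limma adjusted p = 0.0578). Tubb5 had -0.43 ± 0.14 between melatonin-vitrified and vitrified embryos (limma adjusted p = 0.229), and the alpha-tubulin Tuba4a 0.77 ± 0.30 between vitrified and fresh ones (limma adjusted p = 0.198). Tubb6 and Tubb5 had the smallest p-values of the tubulins between melatonin-vitrified and fresh embryos, at -0.76 ± 0.32 and -0.34 ± 0.16, with limma adjusted p of 0.246 and 0.282. The 21 tested genes of dynein and dynactin, the minus-end motor and its activator, had medians of -0.04, 0.09 and 0.02 in these comparisons, with 0 called. The light chain Dynll1 averaged 15.1 ± 2.79 FPKM in melatonin-vitrified, 19.5 ± 3.47 FPKM in vitrified (SD, n = 3 each) and 29.7 ± 1.55 FPKM in fresh embryos (SD, n = 2), with a limma adjusted p of 0.128 between melatonin-vitrified and fresh and 0.149 between vitrified and fresh. Between melatonin-vitrified and vitrified embryos, Ndel1, a regulator of dynein, had 0.28 ± 0.14 (limma adjusted p = 0.389) and Dynll1 -0.35 ± 0.18 (limma adjusted p = 0.40). The related regulator Nde1 had 0.40 ± 0.27 between vitrified and fresh embryos, and the dynactin subunit Dctn1 0.82 ± 0.41 between melatonin-vitrified and fresh ones, with limma adjusted p of 0.434 and 0.319.

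The light chains and cargo adaptors of the kinesins, 13 tested, had medians of 0.04, 0.15 and 0.30 in the same comparisons, and 0 were called. Arl8a, which links lysosomes to kinesin-1, averaged 5.04 ± 0.371 FPKM in melatonin-vitrified and 8.39 ± 0.653 FPKM in vitrified embryos (SD, n = 3 each), a log2 fold change of -0.64 ± 0.24 with a limma adjusted p of 0.280. The mitochondrial adaptor Rhot1 had 0.38 ± 0.21 there (limma adjusted p = 0.428). The kinesin binding protein Kif1bp and the light chain Klc1 had 0.51 ± 0.23 and 0.45 ± 0.22 between vitrified and fresh embryos, with limma adjusted p of 0.259 and 0.280. Trak1, the adaptor that joins Rhot1 to kinesin-1, and Kifap3, which joins kinesin-2 to its cargo, had 0.84 ± 0.36 and 0.41 ± 0.22 between melatonin-vitrified and fresh embryos, with limma adjusted p of 0.257 and 0.348.

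Lineage markers stood as follows beside the kinesins. The summed level of 9 epiblast markers was 365.4 to 416 FPKM in the melatonin-vitrified, 330.4 to 376.2 FPKM in the vitrified and 247.3 and 327.9 FPKM in the fresh libraries, with Esrrb at 0 in fresh replicate 1. More than any other gene, Zfp42 made up this sum, and it went the other way between vitrified and fresh embryos, with a log2 fold change of -0.33 ± 0.14 (limma adjusted p = 0.240). The 8 epiblast genes tested had a median log2 fold change of 1.20 between vitrified and fresh embryos, 7 positive and 1 negative. Their median was -0.12 between melatonin-vitrified and vitrified and 0.83 between melatonin-vitrified and fresh embryos. Of the 8 tested, 1 was called, Nanog, which was higher in vitrified than in fresh embryos, where 0.865% of all genes were called. The 9 primitive endoderm markers summed to 170.3 to 232.7 FPKM in the melatonin-vitrified, 227.9 to 353.9 FPKM in the vitrified, and 162.2 and 287.4 FPKM in the fresh libraries, and the 9 trophectoderm markers to 10126.2 to 12629.9, 7887.4 to 12329.5, and 9276.6 and 8920.8 FPKM. Both of these sums overlapped between vitrified and fresh embryos, while all melatonin-vitrified libraries had a higher trophectoderm sum than both fresh ones. The keratins Krt18 and Krt8 made up most of that sum. Between melatonin-vitrified and fresh embryos 6 trophectoderm genes had positive and 3 negative log2 fold changes, with a median of 0.25. Elf5 was lower without overlap, at 7.58 to 10.6 FPKM in the melatonin-vitrified and 16.2 and 15.8 FPKM in the fresh libraries. Between melatonin-vitrified and vitrified embryos all 9 primitive endoderm genes had negative log2 fold changes, with a median of -0.47 and 0 called. Their median was 0.32 between vitrified and fresh and -0.10 between melatonin-vitrified and fresh embryos. The part of cell composition in the kinesin values was not tested.

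Several kinesin genes share exons with a gene on the opposite strand, and the use of strand in the authors' counting is not given in the sources used here. Kif20a overlaps the exons of the anaphase-promoting complex gene Cdc23 over 1271 bases; Cdc23 had 24.3, 26.1 and 21 FPKM in the melatonin-vitrified, 21.2, 17.0 and 17.1 FPKM in the vitrified, and 10.9 and 17.8 FPKM in the fresh libraries. Cdc23 was thus also lowest in fresh replicate 1, at less than the level of Kif20a in every library. Kif2a overlaps Dimt1 over 1229 bases and Kif4 overlaps Pdzd11 over 832. Dimt1 was at 13.7 to 15.2 FPKM in the melatonin-vitrified, 13.3 to 22.2 FPKM in the vitrified, and 17.5 and 15.7 FPKM in the fresh libraries, above Kif2a in all of them. If strand was not used, reads of such neighbours and of the kinesins cannot be told apart within the shared exons.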

How the data were processed

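RNA of 8 mouse blastocyst libraries was sequenced (3 melatonin-vitrified, 3 vitrified, 2 fresh). The series text names Smart-seq2, while the sample protocol describes poly(A) selection and a strand-specific library, and which was used is unclear. The authors deposited 1 table of FPKM, on build mm10 per the submitters' processing notes; which aligner, counter, annotation and filters were applied is not given in the sources used here. FPKM divide by the fragments of each library, so a rise of a few abundant genes lowers all others. Coordinates are from GENCODE release M21 (19553 of 19688 genes matched, 99.3%) and fragments were estimated from whole multiples in the FPKM of 4956 genes with 1 transcript; 94.3% to 96.4% of low values were within 0.1 of a whole number.

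The test was limma 3.58.1, run under R 4.3.3 (variance trend, two-sided), on log2(FPKM + 1), in 1 fit of all 8 libraries. The 10755 genes with 2 or more libraries at 1 FPKM or above were tested. P-values were adjusted by Benjamini-Hochberg over these, with a threshold of 0.05. Fold changes on this scale understate those of low genes. The fit was tested on simulated data. Motifs were searched with Python 3.11.15 and pandas 2.3.3. The members, classes and lists were chosen with earlier results of these data known. Values of every library are given for Kif11, Kif20a, Kif23 and Kif2c, the 3 smallest p-values per direction and comparison and the 4 highest levels per class, and other members by range; from each partner list the 2 genes with the smallest p in each comparison are named. Kif3c as highest in fresh embryos, 1110002L01Rik, Cdc23, Dimt1 and the marker genes were named after their values were seen. Group and replicate numbers follow the biosample descriptions. Kif12, Kif19b, Kif25, Kif26b, Kif28, Kif2b and Kif6 had no row under these names in the deposited expression table, so they were not analysed here. Other settings were median ratio scaling, quantile normalization, a pseudocount of 0.1, no filter on low values, a filter at a mean of 5 FPKM, no trend, only the groups compared, replicate blocks, library weights, sex as a covariate, an adjusted p below 0.1, core members only, and each library left out.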

Additional observations from a re-analysis of the deposited data

How the results depend on the processing

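Kinesins called numbered 0 in each comparison, except 4 between vitrified and fresh embryos at an adjusted p below 0.1, 1 between melatonin-vitrified and vitrified embryos with library weights, and, leaving out 1 library at a time, 0 to 3 between vitrified and fresh and 0 to 6 between melatonin-vitrified and fresh embryos; the highest counts came without fresh replicate 2. Leaving out libraries, the mitotic median ranged from 0.39 to 0.99 between vitrified and fresh, from -0.072 to 0.23 between melatonin-vitrified and vitrified, and from 0.42 to 0.99 between melatonin-vitrified and fresh embryos. The kinesins higher in every melatonin-vitrified than in every vitrified library numbered 2 to 4 in those fits (9.34% to 15.2% of genes) and those lower in every one 4 to 7 (15.4% to 24.2%). The transport median between vitrified and fresh embryos was 0.25 after quantile normalization and 0.82 with a pseudocount of 0.1, beside mitotic medians of 0.57 and 0.79. In that comparison 9 kinesins were without overlap and higher after quantile normalization, against 17.4% of genes, and 11 after median ratio scaling, against 18.0%. Biosample numbers did not pair the libraries (correlations of deviations from -0.11 to 0.12). With the biosample number as a replicate block the mitotic medians were 0.81, 0.02 and 0.76 for vitrified against fresh, melatonin-vitrified against vitrified and melatonin-vitrified against fresh, and 0 kinesins were called; with the title number as a replicate block the last was 1.04. The cause of these shifts was not tested.

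Over all genes the calls moved more. Between vitrified and fresh embryos 93 were called, against 7 with median ratio scaling, 5 with quantile normalization, 1 without a filter, 11 with only the groups compared, 1 and 39 with biosample and title replicate blocks, 1 with library weights, 4 with sex as a covariate, 686 at an adjusted p below 0.1 and 2 to 433 leaving out libraries. Between melatonin-vitrified and vitrified embryos 15 were called, against 9 with quantile normalization, 10 at a mean of 5 FPKM, 6 with a pseudocount of 0.1, 68 with only the groups compared, 1 and 0 with the blocks, 233 with weights, 3 with sex, 45 at an adjusted p below 0.1 and 1 to 68 leaving out libraries. Between melatonin-vitrified and fresh embryos 0 were called by limma (1985 at an unadjusted p below 0.05), against 5 with a pseudocount of 0.1, 2 with only the groups compared, 44 with the title block and 0 to 565 leaving out libraries. The 17 kinesins below 1 FPKM in all but at most 1 library were not tested.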

Other observations

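The transcript Kif16bos, which carries the name of the opposite strand of Kif16b, was listed at 0.848, 0.687 and 0.572 FPKM in the melatonin-vitrified libraries and at 0 in the 3 vitrified and 2 fresh ones. It was singled out after its values were seen and was below the level for testing. Kif16b itself overlapped between melatonin-vitrified and vitrified libraries. The pseudogene Kifc5c-ps, a copy of Kifc1 and Kifc5b, was at 0.401, 0 and 0.0676 FPKM in the melatonin-vitrified, 0, 0.0696 and 0 FPKM in the vitrified, and 0 and 0 FPKM in the fresh libraries.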
